A study of Mus musculus with 12 samples.

Results

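The Schlafen genes of mouse chromosome 11 were followed in bone marrow-derived dendritic cells (BMDCs) with and without CTCF, the protein that binds insulator sites and anchors chromatin loops. Members were taken by symbol, and Slfn1, Slfn2, Slfn3, Slfn4, Slfn5, Slfn8 and Slfn9, 7 of the 55335 genes in each table, were all present and all among the 14008 genes with enough counts to be tested. RNA-seq was available for 12 libraries in 4 groups of 3: unstimulated WT and KO cells, and the same cells given LPS at 100 ng/ml for 3 h (WTL and KOL). All came from C57BL/6 bone marrow that carried the tamoxifen-activated Cre recombinase CreER and was grown for 6 days with GM-CSF, after which, per the study's methods, nonadherent cells were collected and purified for CD11c, the product of Itgax, on magnetic beads. The KO cells also carried the floxed Ctcf allele (CreER;CTCF fl/fl), and 4-OH tamoxifen was given on the opening day of culture to delete it. The sources used here differ on whether WT cultures received 4-OH tamoxifen too, so its effect and that of CTCF loss cannot be told apart.

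Schlafen proteins take their name from the German word for sleeping, after the growth arrest that Slfn1 caused in T cells. The family is known for keeping lymphocytes and monocytes quiescent, for restricting viruses through effects on RNA and translation, and for being induced by type I interferon. In myeloid cells LPS acts through the receptor TLR4, which switches on interferon beta, and the receptor for this cytokine then signals through the kinases Jak1 and Tyk2 to a complex with Stat2 and Irf9 that binds interferon-stimulated response elements (ISREs). Slfn1 and Slfn2 are short members, Slfn3 and Slfn4 are intermediate, and Slfn5, Slfn8 and Slfn9 are long members with a helicase-like part at the end. Their coding sequences in GENCODE M21 measured 1011 bases (Slfn1), 1134 (Slfn2), 1806 (Slfn4), 1920 (Slfn3), 2652 (Slfn5) and 2730 (Slfn8 and Slfn9). Local alignment of the coding sequences put Slfn3 and Slfn4 at 94.2% identity over 1678 aligned bases and Slfn8 and Slfn9 at 92.7% over 2730 bases. The other 19 pairs were between 61.1% and 78.4% identical.

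On mm10, the cluster ran from 82942341 to 83286726 on chromosome 11, a span of 344 kb that held 27 annotated genes, 10 of them Slfn genes. From left to right the members were Slfn5 (82951349 to 82964840, plus strand), Slfn9 (82978390 to 82991830, minus), Slfn8 (83002158 to 83020810, minus), Slfn2 (83065112 to 83070678, plus), Slfn1 (83116849 to 83122670, plus), Slfn4 (83175186 to 83190216, plus) and Slfn3 (83191330 to 83215154, plus). The cluster also held the pseudogene Slfn10-ps, the antisense gene Slfn5os and Slfn14, a long member that reached at most 2 expected counts in any library. Slfnl1, a gene with a like symbol that lies elsewhere, was at 0 in all 12 libraries.

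Promoter sequence of all 7 members was taken from RefSeq on GRCm38.p6, as the 250 bases before the annotated start. Slfn8 and Slfn9 are shown because these near copies lay side by side and differed in direction between KO and WT cells, as given below. Capitals mark matches to the ISRE core GAAANNGAA on either strand. The Slfn8 stretch is chr11:83020811-83021060 and the Slfn9 stretch chr11:82991831-82992080, both on the minus strand and both outside annotated exons.
Slfn8: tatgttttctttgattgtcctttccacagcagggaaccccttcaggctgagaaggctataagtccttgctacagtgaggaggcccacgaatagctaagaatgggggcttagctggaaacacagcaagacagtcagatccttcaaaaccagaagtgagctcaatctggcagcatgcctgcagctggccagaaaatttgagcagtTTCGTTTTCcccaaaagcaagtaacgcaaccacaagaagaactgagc
Slfn9: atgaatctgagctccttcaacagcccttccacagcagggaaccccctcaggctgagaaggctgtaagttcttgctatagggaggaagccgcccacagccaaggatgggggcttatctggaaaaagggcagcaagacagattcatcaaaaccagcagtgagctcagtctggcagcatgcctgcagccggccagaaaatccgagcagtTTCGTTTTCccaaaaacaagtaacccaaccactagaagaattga
The pair were 88.4% identical over 224 aligned bases, and each held 1 ISRE core match with the same letters, 47 bases before the start of Slfn8 and 44 before that of Slfn9. The RefSeq table also lists another start of Slfn8 further downstream, and from that one the same match lies 135 bases away. Slfn5 is shown for its 2 matches, 155 and 132 bases before the start, in a stretch on the plus strand (chr11:82951937-82951982) that lies between annotated exons of a longer Slfn5 transcript.
Slfn5: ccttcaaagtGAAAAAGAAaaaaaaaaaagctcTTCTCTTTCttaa
Slfn1 is shown because it had the lowest level in KO relative to WT, and its window (chr11:83116570-83116819, plus strand, outside annotated exons) held no match.
Slfn1: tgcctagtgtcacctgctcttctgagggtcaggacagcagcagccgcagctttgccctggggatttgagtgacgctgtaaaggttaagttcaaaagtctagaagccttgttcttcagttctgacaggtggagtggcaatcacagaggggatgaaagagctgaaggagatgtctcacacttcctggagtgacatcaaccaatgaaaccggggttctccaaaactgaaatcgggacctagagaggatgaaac
Slfn2, Slfn3 and Slfn4 held no ISRE core match in this window either, whereas Slfn14 held 1. Of all 32851 promoter windows of this length, 7.13% held the ISRE core. None of the members held the other motifs searched on both strands, the gamma-activated site TTCNNNGAA (7.02% of all windows), the NF-kB site GGGANNTTC (3.23%) and the CTCF core CCANNAGGG (5.07%), so no match overlapped another motif. These matches describe the letters alone, and other forms of each motif were not searched.

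Ctcf itself was at 1051, 987 and 975 normalized counts in WT, 886, 817 and 745 in WTL, 570, 562 and 516 in KO and 563, 530 and 526 in KOL. Normalized counts are expected counts scaled to a common effective library size, the mean over the 12 libraries. The groups with and without the floxed allele did not overlap, and KO was 1.83-fold below WT (edgeR, adjusted p = 3.9e-07). A count over the whole gene does not separate the floxed exons from the rest. Total expected counts were 12769773 to 16586334 per library. All 9 dendritic cell markers listed, MHC class II genes and Itgax among them, were detected in every group, with a summed TPM of 8303 to 17882 over the 12 libraries. B cell markers summed to at most 1.71 TPM and T cell markers to at most 4.75. WTL replicate 1 and KOL replicate 2 were the highest libraries of their groups for Slfn3, Slfn4, Slfn5, Slfn8 and Slfn9, and WTL replicate 2 had 5.165% of its counts in ribosomal RNA.

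Every Schlafen member rose after LPS in WT cells. The rises ran from 4.48-fold for Slfn3 to 29.5-fold for Slfn4, with 10.8-fold for Slfn1 and 17.6-fold for Slfn5. All 7 passed an adjusted p of 0.05 and a fold of 2, against 12.6% of all tested genes that were higher and 9.99% that were lower under the same rule. The 3 WTL libraries also lay above the 3 WT libraries for all 7, as they did for 31.8% of all tested genes, with 33.3% below. The median log2 fold change was 3.43 over the members and -0.02 over all genes tested.

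Among the short members, Slfn1 was at 210, 200 and 221 normalized counts in WT, 2522, 2173 and 2097 in WTL, 37.7, 36.5 and 36.1 in KO and 900, 842 and 911 in KOL. Its 4 groups were fully apart, with KO lowest and WTL highest. Slfn2, whose mutation in mice leaves T cells and monocytes unable to stay quiescent, was at 6041, 5873 and 5927 in WT, 31670, 28596 and 27981 in WTL, 4849, 4797 and 4702 in KO and 21608, 23078 and 23841 in KOL. This was the order of Slfn1 again, with far smaller gaps between KO and WT cells.

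Of the intermediate members, Slfn4, known from inflammatory macrophages, was at 68.9, 52.0 and 51.0 normalized counts in WT, 1927, 1637 and 1505 in WTL, 45.8, 49.9 and 30.6 in KO and 1355, 1671 and 1454 in KOL. The stimulated groups overlapped, and the unstimulated groups lay side by side without overlap. Slfn3, studied mostly in T cells and gut epithelium, was at 132, 147 and 151 in WT, 905, 612 and 424 in WTL, 102, 112 and 90.8 in KO and 187, 405 and 224 in KOL. Its stimulated libraries were the most scattered of any member, and the highest KOL library came just under the lowest WTL library.

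For the long members, Slfn5 was at 1766, 1774 and 1985 normalized counts in WT, 40469, 29978 and 26855 in WTL, 1301, 1283 and 1277 in KO and 21817, 34445 and 22307 in KOL. Slfn9 was at 741, 699 and 743 in WT, 8205, 6155 and 5694 in WTL, 554, 505 and 518 in KO and 3864, 5257 and 3869 in KOL. Both were lower in all KO than in all WT libraries, and after LPS Slfn9 remained apart while Slfn5 overlapped. Slfn8 was at 575, 606 and 622 in WT, 10541, 8039 and 7074 in WTL, 990, 981 and 913 in KO and 8332, 12663 and 8444 in KOL. It was the member that lay higher in all KO than in all WT libraries, and its stimulated groups overlapped.

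**Figure D1:**
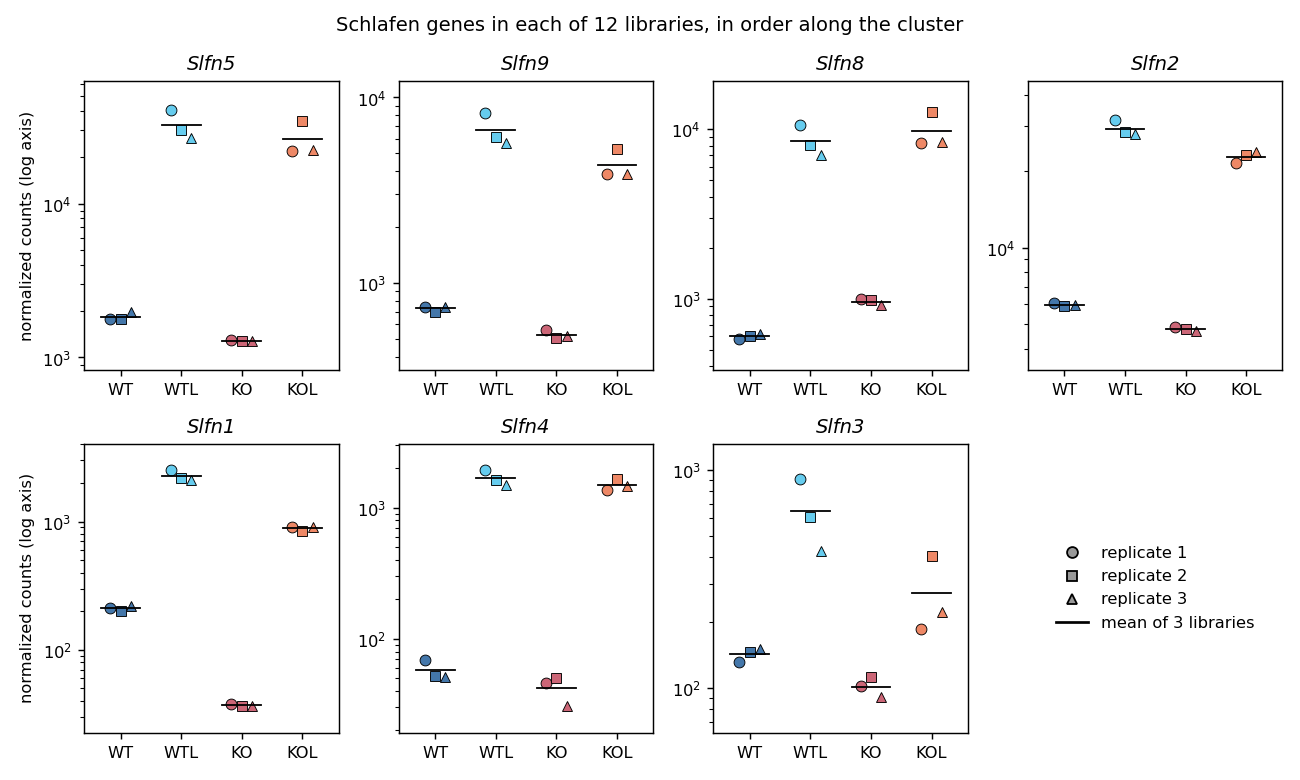
Normalized counts (log axis) of each member in the 4 groups, with 1 symbol per library and the mean as a line, in order along the cluster. All stimulated libraries lie above all unstimulated libraries of the same genotype, Slfn1 in KO lies at 36.1 to 37.7 against 200 to 221 in WT, and Slfn8 in KO lies at 913 to 990 against 575 to 622.

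On the log2 scale the LPS response of WT cells was 4.88 ± 0.16 (SE) for Slfn4, 4.14 ± 0.19 for Slfn5, 3.83 ± 0.17 for Slfn8, 3.43 ± 0.09 for Slfn1, 3.20 ± 0.15 for Slfn9, 2.31 ± 0.07 for Slfn2 and 2.16 ± 0.27 for Slfn3. Adjusted p-values were 9.4e-06 for Slfn3 and at most 1.5e-10 for the others (edgeR quasi-likelihood test). The number of cells of a type and the RNA per cell cannot be told apart in these bulk libraries. The 6 macrophage markers, mainly Lyz2, summed to 25123 to 27209 TPM in WT and 13940 to 18654 in WTL. Csf1r, Cd68, Mertk and Lyz2 were lower in WTL without overlap and Adgre1 overlapped, whereas Fcgr1 was higher (3.68 to 5.34 TPM in WT, 11.5 to 13.1 in WTL). On log2(TPM + 1) the median over all genes kept shifted as well, by -0.438. The part of these markers in the rises was not tested.

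Levels between members were compared per length, as TPM. Slfn2 held most of the summed TPM of the 7 members in each group, 81.7% ± 1.04 (SD, n = 3) in WT and 62.4% ± 3.34 in WTL. At a mean of 397 TPM it stood at place 326 among all 55335 genes in WT, and at 1363 TPM at place 124 in WTL. In WT the order below Slfn2 was Slfn5 (33.2 TPM), Slfn8 (18), Slfn9 (15.1), Slfn1 (12.3), Slfn3 (8.28) and Slfn4 (1.71), and no neighbours in this order overlapped between libraries. In WTL the order was Slfn5 (400), Slfn8 (185), Slfn9 (92.7), Slfn1 (92), Slfn4 (34.8) and Slfn3 (26.1), with overlap between Slfn9 and Slfn1 and between Slfn4 and Slfn3. In KO, Slfn8 (26.9) stood above Slfn5 (21.9), followed by Slfn9 (10.5), Slfn3 (5.55), Slfn1 (2.01) and Slfn4 (1.27), again without overlap. In KOL, Slfn5 (316) and Slfn8 (211) overlapped, and Slfn9 (58.1), Slfn1 (35.3), Slfn4 (32.4) and Slfn3 (10.7) followed without overlap.

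The summed TPM of the 7 members was 485 ± 13.4 (SD, n = 3) in WT, 2194 ± 324 in WTL, 366 ± 7.18 in KO and 1701 ± 164 in KOL. The share of Slfn5 in the sum was 6.85% in WT and 18.1% in WTL, and that of Slfn1 was 2.54% in WT and 0.55% in KO. Slfn8 made up 3.71% of the sum in WT and 7.35% in KO. TPM is scaled to a fixed sum per library, and on log2(TPM + 1) the median over the 13435 genes kept was -0.438 for WTL against WT, a shift that cancels in shares within the cluster but not in levels.

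**Figure D2:**
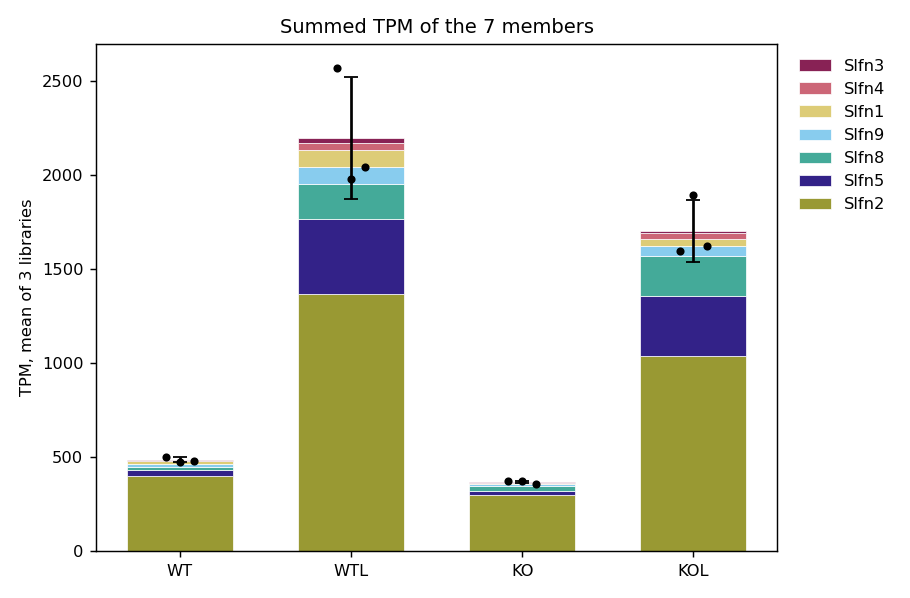
Mean TPM of each member stacked by group, with the sum of the 7 members in each of 3 libraries as points and its SD as a bar. The sums were 485 in WT, 2194 in WTL, 366 in KO and 1701 in KOL, and Slfn2 forms the bulk of every column.

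Without CTCF and without LPS, the cluster did not move as a block. Slfn1 was 5.7-fold lower in KO than in WT, Slfn5 1.43-fold lower and Slfn9 1.38-fold lower, whereas Slfn8, next to Slfn9, was 1.6-fold higher. At an adjusted p of 0.05 and a fold of 1.3, 1 member was higher and 3 were lower, against 17.3% of all tested genes higher and 17.2% lower. The median log2 fold change was -0.47 over the members and -0.01 over all genes tested.

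The log2 fold change of Slfn1 was -2.51 ± 0.11 (SE; edgeR, adjusted p = 4.6e-10), which placed it below every other member. That of Slfn8 was 0.68 ± 0.16 (adjusted p = 0.0037), that of Slfn9 -0.47 ± 0.14 (adjusted p = 0.015) and that of Slfn5 -0.52 ± 0.17 (adjusted p = 0.022) by edgeR. Slfn2 passed the p threshold but not the fold cutoff, at -0.31 ± 0.07 (edgeR, adjusted p = 0.0016), and without the fold cutoff 22.4% of all tested genes were lower. Slfn3 (-0.50 ± 0.31, adjusted p = 0.22) and Slfn4 (-0.44 ± 0.21, adjusted p = 0.1) did not pass the edgeR test. The 3 KO libraries did not overlap the 3 WT libraries for any member, 1 higher and 6 lower, but this alone was common, with 31.9% of all tested genes apart and higher and 32.3% apart and lower. The call of Slfn5 was lost without WT replicate 3 and without KO replicate 1, 2 or 3 (adjusted p 0.056 to 0.064) and that of Slfn9 without KO replicate 2 (adjusted p = 0.055), where Slfn1 was the 1 member called lower. Without the filter on low counts Slfn3 and Slfn4 passed too and 5 members were called lower, and with limma on log2(TPM + 1) without a TPM filter no member was called higher. With the libraries of this comparison alone 4 members were called lower. Between replicates the chi-square of counts per degree of freedom was 1.7 to 1.92 in KO and 3.33 to 4.75 in WT. In the stimulated groups it was 8.78 to 86.04, and the fit of 12 libraries shares 1 estimate of spread over all groups.

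Slfn8 and Slfn9 share sequence, and 3.38% of the words of 100 bases in Slfn8 transcripts and 3.71% of those in Slfn9 transcripts also occur in another Slfn gene, most of them in Slfn10-ps. RSEM divides such reads by estimate. The sum of the Slfn8 and Slfn9 counts was 1329 ± 31.9 (SD, n = 3) in WT and 1487 ± 56.4 in KO. Slfn10-ps, with 7.84% of its words shared, was at 236, 278 and 305 in WT and 178, 180 and 176 in KO (log2 fold change -0.62 ± 0.35; edgeR, adjusted p = 0.17). Slfn1, Slfn3 and Slfn5 shared no such word with another Slfn gene, but only exact words were counted. Expected counts of Slfn3 were not whole in 12 of 12 libraries and those of Slfn5 in 8, so some of their reads were divided too. The sum of Slfn3 and Slfn4 was 201 ± 1.79 (SD, n = 3) in WT and 144 ± 20.8 in KO. In WTL this sum was 2337 ± 458 and in KOL 1765 ± 277, with overlap between libraries.

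Marker genes moved with the same contrast, in part in both directions within a list. The 9 dendritic cell markers summed to 12849 to 13610 TPM in WT and 8303 to 8661 in KO. Of these, 8 were lower in KO without overlap, the MHC class II genes among them, whereas Itgax was at 356 to 374 TPM in WT and 598 to 612 in KO. The 6 macrophage markers summed to 25123 to 27209 TPM in WT and 45609 to 48100 in KO, of which Lyz2 alone was 24213 to 26302 and 44629 to 47096. Csf1r was higher in KO too, whereas the other 4, Adgre1 (92.1 to 105 TPM in WT, 46.8 to 54.2 in KO), Cd68, Mertk and Fcgr1, were lower without overlap. The 9 neutrophil markers summed to 378 to 400 TPM in WT and 194 to 226 in KO, with 6 lower without overlap and 3 overlapping. The 4 megakaryocyte markers, mainly Pf4, summed to 143 to 150 and 65.3 to 75.5, with Pf4 lower and Gp1ba higher. In WT the neutrophil sum came mainly from S100a8 (233 to 254 TPM) and S100a9 (127 to 129), and no other marker of that list was above 8.29. Itga2b, Gp9 and Gp1ba were at most 1 TPM in WT, against 142 to 149 for Pf4. The presence of neutrophils or megakaryocytes among these cells, selected for CD11c, cannot be read from such sums. The part of the marker changes in the Schlafen differences was not tested.

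From left to right the log2 fold changes of KO against WT were -0.52 (Slfn5), -0.47 (Slfn9), 0.68 (Slfn8), -0.31 (Slfn2), -2.51 (Slfn1), -0.44 (Slfn4) and -0.50 (Slfn3). Of the 5 tested genes inside the cluster that are not Slfn genes, none was called in KO against WT. AI662270, just beyond Slfn3, was at 0.00, Gm20234 at 0.08 and Gm11427 at 0.24. Gm11425, beside Slfn10-ps, was at -0.99 ± 0.43 (SE) and 1190001M18Rik at 0.83 ± 0.82, each with means of at most 19.2 normalized counts in WT and KO. Of the 4 tested protein-coding genes among the 5 nearest to the left, Nle1 was lower (-1.29; edgeR, adjusted p = 8e-05), and of the 3 tested to the right, none was called.

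**Figure D3:**
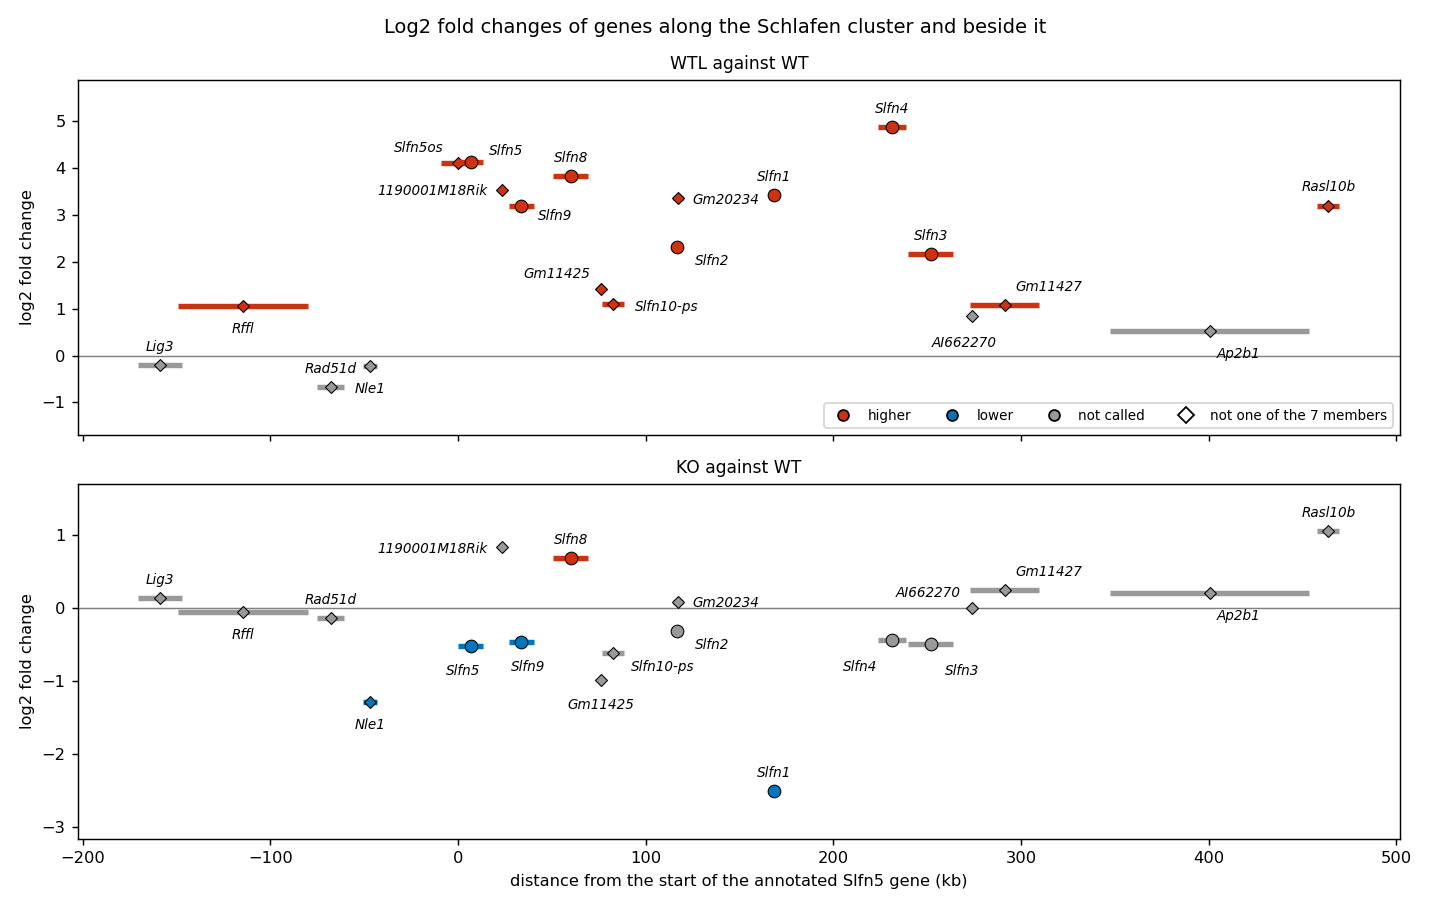
Log2 fold change of tested genes in the cluster and of nearby protein-coding genes, by distance in kb from the start of Slfn5, for WTL against WT (top) and KO against WT (bottom), with bars spanning each gene. All 7 members are higher after LPS, and in KO against WT Slfn1 (-2.51) lies far below the other members and Slfn8 (0.68) above them. Slfn5os is left out of the lower panel because it was at 0 in all KO libraries.

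Of the neighbours, 1 of 4 tested to the left and 1 of 3 tested to the right were higher after LPS in WT cells. Rffl to the left (1.05) and Rasl10b to the right (3.20, at a mean of 2.96 normalized counts in WT and 27.3 in WTL) were called higher, whereas Lig3, Rad51d, Nle1 and Ap2b1 were not called. Inside the cluster 1190001M18Rik (3.54), Gm20234 (3.36), Gm11425 (1.42) and Gm11427 (1.08) were higher and AI662270 was at 0.84. The rises of 1190001M18Rik and Gm20234 started from low means, 1.15 and 2.9 normalized counts in WT, and reached 14.7 and 31.4 in WTL. Slfn10-ps reached 866, 493 and 417 normalized counts in WTL and 202, 579 and 227 in KOL, with the same high libraries as the long members. Slfn5os, antisense to Slfn5, was at 0, 3.35 and 1.73 in WT, 45.9, 28.2 and 24.5 in WTL, 0 in all KO libraries and 14.0, 29.3 and 8.5 in KOL. Its rise in KOL was at least 6.2-fold, computed against a floor of 3 counts per KO library. The study's methods name strand-specific libraries, but whether strand was used in counting is not given in the sources used here. It is therefore not known whether reads of Slfn5os and Slfn5 were kept apart, nor those of Slfn2 and its antisense gene Gm20234.

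After LPS, 3 members were lower in KOL than in WTL, Slfn1 by 2.56-fold, Slfn3 by 2.38-fold and Slfn9 by 1.54-fold, and none was higher. The rule was an adjusted p of 0.05 and a fold of 1.5, which 12.5% of all tested genes met as higher and 12.5% as lower. The median log2 fold change was -0.36 over the members and -0.03 over all genes tested, and the 2 groups did not overlap for Slfn1, Slfn2, Slfn3 and Slfn9, all lower in KOL. Over all tested genes 24.4% were apart and lower and 21.9% apart and higher.

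The log2 fold changes of the called members were -1.35 ± 0.08 (SE) for Slfn1 (edgeR, adjusted p = 6e-09), -1.25 ± 0.26 for Slfn3 (adjusted p = 0.0014) and -0.63 ± 0.13 for Slfn9 (adjusted p = 0.0015). Stimulated libraries spread more than unstimulated ones (chi-square per degree of freedom 8.78 to 86.04 against 1.7 to 4.75). The fit shares 1 estimate of spread over all groups, so SE and p-values of this comparison may be too small. Slfn2 again passed the p threshold but not the fold cutoff (-0.36 ± 0.07; edgeR, adjusted p = 0.00047), and without the fold cutoff 23.3% of all tested genes were lower. For Slfn5 (-0.31 ± 0.16), Slfn4 (-0.18 ± 0.12) and Slfn8 (0.20 ± 0.15) the groups overlapped and the test was not passed. With WTL replicate 1 and KOL replicate 2 left out together, 3 members were called lower, with Slfn1 at -1.24, Slfn3 at -1.33 and Slfn9 at -0.62. This setting was chosen after the values were seen. It drops the highest library of each group for Slfn3 and Slfn9, which narrows the spread, so it gives no separate support. Slfn9 fell short of the fold cutoff without WTL replicate 1 (-0.45), KOL replicate 1 (-0.55) or KOL replicate 3 (-0.55). The summed macrophage markers were 13940 to 18654 TPM in WTL and 18046 to 25577 in KOL and the dendritic cell markers 12626 to 17383 and 12632 to 17882, ranges that overlap for both lists, as did the megakaryocyte markers (130 to 156 and 143 to 206). The macrophage markers Mertk (7.77 to 12.5 TPM in WTL, 3.65 to 5.08 in KOL) and Fcgr1 (11.5 to 13.1 and 2.31 to 2.63) did not overlap, nor did the dendritic cell markers H2-Aa, Flt3 and Ciita, lower in KOL, and Zbtb46, higher. The neutrophil markers summed to 350 to 443 TPM in WTL and 288 to 337 in KOL, without overlap, with 5 of 9 lower and Ly6g higher. The part of these in the differences after LPS was not tested.

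KO cells raised all 7 members in response to LPS, against 15.1% of all tested genes higher and 13.0% lower at an adjusted p of 0.05 and a fold of 2. Log2 fold changes of KOL against KO were 5.15 ± 0.16 (SE) for Slfn4, 4.58 ± 0.11 for Slfn1, 4.35 ± 0.19 for Slfn5, 3.35 ± 0.17 for Slfn8, 3.04 ± 0.15 for Slfn9, 2.26 ± 0.07 for Slfn2 and 1.41 ± 0.30 for Slfn3. The median was 3.35, against -0.02 over all genes tested. The KOL libraries lay above the KO libraries for all 7, and for 34.9% of all tested genes, with 36.3% below. With limma on TPM 6 members were called, since Slfn3 was at 0.77 on log2(TPM + 1), with or without the TPM filter, and at 0.86 on log2(TPM + 0.1), below a fold of 2. The 4 comparisons share their groups, so their values are not independent of one another.

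The LPS response itself differed between KO and WT cells for Slfn1, by 1.16 ± 0.14 on the log2 scale (edgeR interaction term, adjusted p = 8.3e-05). Slfn1 rose 24-fold in KO, from a mean of 36.8 to 884 normalized counts, and 10.8-fold in WT, from 210 to 2264, and so ended 2.56-fold lower after starting 5.7-fold lower. The interaction was called higher for 8.70% and lower for 8.75% of all genes tested. No other member passed, with log2 values of 0.26 ± 0.24 for Slfn4, 0.21 ± 0.23 for Slfn5, -0.05 ± 0.09 for Slfn2, -0.16 ± 0.19 for Slfn9, -0.48 ± 0.22 for Slfn8 and -0.75 ± 0.41 for Slfn3. Without KOL replicate 2, Slfn8 (-0.70) and Slfn3 (-1.14) were called lower as well. With WTL replicate 1 left out too, a setting chosen after the values were seen, they were at -0.53 and -0.83 and again called. Leaving out these high libraries narrows the spread, so the calls give no separate support.

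**Figure D4:**
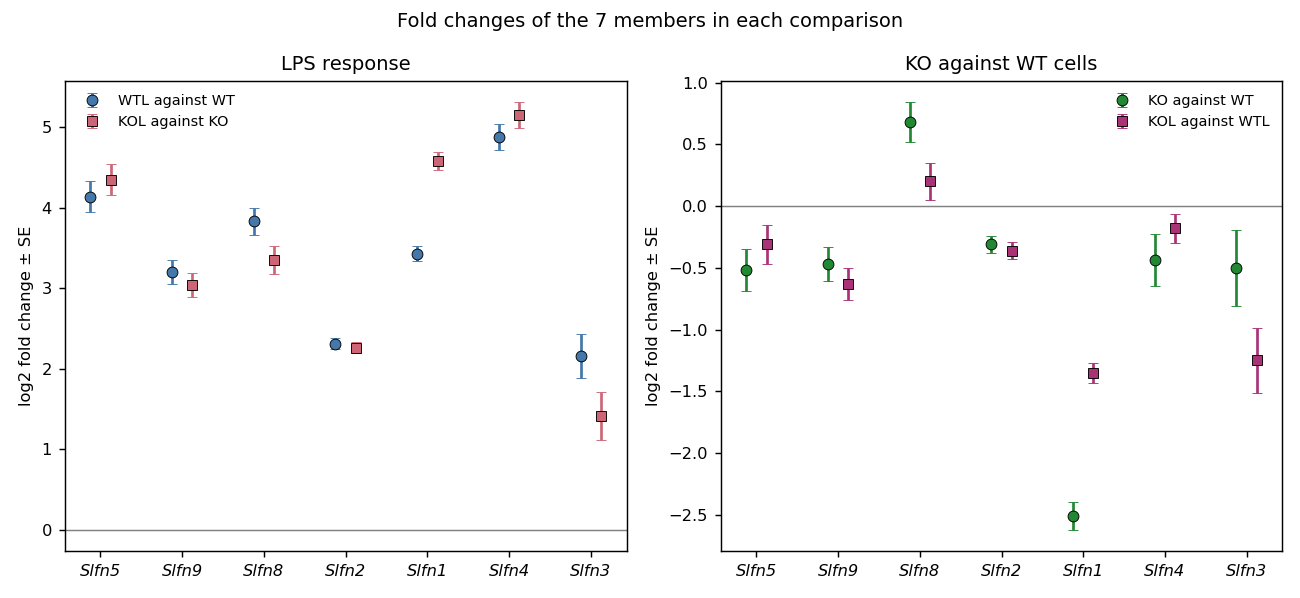
Log2 fold change ± SE of each member in order along the cluster, for the LPS response of WT and KO cells (left) and for KO against WT cells before and after LPS (right). Slfn1 rises by 4.58 in KO and 3.43 in WT, and its deficit goes from -2.51 unstimulated to -1.35 after LPS.

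Genes of the interferon pathway were set beside the cluster, 34 listed and 32 tested, since Ifna2 and Ifna4 had too few counts. After LPS 27 rose and none fell in WT cells, against 12.6% of all genes tested higher and 9.99% lower. In KO cells 27 rose and none fell too, against 15.1% higher and 13.0% lower. In KO against WT 2 were higher and 20 lower, with a median log2 fold change of -0.68, where 3 of 7 Schlafen members were lower. Over all genes tested the shares were 17.3% higher and 17.2% lower.

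By role, the ligand gene Ifnb1 had 2, 4 and 5 expected counts in WT and 0 in every KO library, and rose to 136, 148 and 162 normalized counts in WTL and to 117, 91.3 and 145 in KOL, at least 42.4-fold above the floor of 3 counts per KO library. The transcription factor genes Stat2 (-1.11), Irf9 (-0.92) and Irf7 (-0.93) were lower in KO than in WT on the log2 scale (edgeR, adjusted p at most 3.6e-07). Beside Ifnb1, the largest falls were in Oas2 (-2.46 ± 0.14) and Oas3 (-2.00 ± 0.10), which encode sensors of double-stranded RNA that make oligoadenylates, and 2 genes were higher, the receptor gene Ifnar1 (0.65) and the RNA sensor gene Ifih1 (1.09). The falls of Oas2 and Oas3 were of the size of that of Slfn1 and well beyond those of the other members. They were the extremes of the list beside Ifnb1, and the median over its 19 target genes was -0.62, against -0.47 over the members. In KOL against WTL 4 of the 32 genes were lower, Oas2 (-1.25), Irf1 (-0.92), Oas3 (-0.84) and the receptor gene Ifnar2 (-0.63). Ifih1 (0.66) was higher. Over all genes tested 12.5% were lower and 12.5% higher by the same rule, so the count of lower genes was near that share at this fold cutoff. Without the cutoff a larger part of the list was lower than of all tested genes, as given in the closing section. Ifnar2 missed the fold cutoff without WTL replicate 1 (-0.56) or KOL replicate 2 (-0.58), and Ifih1 without WTL replicate 3 (0.58) or KOL replicate 2 (0.54). At the same time Stat2 (-0.35) and Irf7 (-0.33) passed the p threshold but not the fold cutoff, and Irf9 was at -0.08.

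The antiviral genes Rsad2 (5.60) and Cmpk2 (5.55) had, with Ifnb1, the largest rises of the list in WT cells on the log2 scale, above the 4.88 of Slfn4, and in KO cells they rose by 6.48 and 6.25. Stat2, Irf9 and Irf7 rose by 2.35, 1.36 and 4.46 in WT cells and by 3.11, 2.20 and 5.06 in KO cells. The interaction was called higher for 19 of the 32 genes and lower for 2, both of them receptor genes. Over all genes tested the shares were 8.70% higher and 8.75% lower. Oas2 (1.21 ± 0.16), Xaf1 (1.20 ± 0.10), Stat2 (0.76), Irf9 (0.84) and Irf7 (0.60) were called higher, as Slfn1 was, and Ifnb1 was called higher from a KO level of 0. The calls of Ifnb1 and of Ifnar2 were lost without WT replicate 3 and WT replicate 1, respectively, that of Ifnb1 also without KO replicate 1 or 3. Calls of Irf1, Isg15, Mx1 and Oasl2 as higher were each lost as well when certain single libraries were left out. Some genes of the list that were not called gained a call in the same way.

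**Figure D5:**
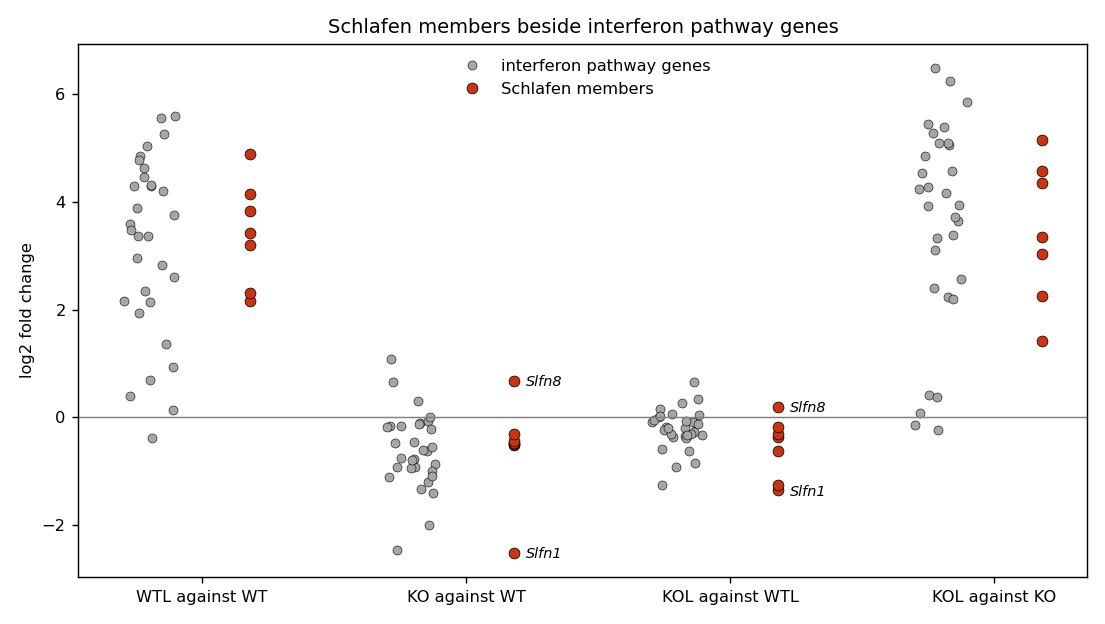
Log2 fold changes of the 7 Schlafen members (red) beside 31 tested interferon pathway genes (grey) in 4 comparisons, with Ifnb1 left out because it was at 0 in KO. Slfn1 lies below every pathway gene shown in KO against WT (-2.51, with Oas2 at -2.46), and in KOL against WTL Slfn1 (-1.35) and Slfn3 (-1.25) lie beside the lowest of them, Oas2 (-1.25).

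The genes whose pattern over the 12 libraries was most like that of a member were taken from 9337 genes with a mean of at least 100 normalized counts, by Pearson r of log2 normalized counts. For Slfn1 these were Ccl17, Oas2 and Clec2d (r = 0.998 each), and for Slfn5 they were Ifit2 (1.000), Parp9 and Trim21 (0.999 each), of which Ifit2 is a classical interferon target. Slfn2 was nearest to Zup1, Cxcl10 and Tor1aip1 (0.999 each) and Slfn9 to Tor1aip1 (0.999), Parp14 and Acsl1 (0.998 each). Slfn8 was nearest to Fndc3b (0.998), Gbp3 and Gbp9 (0.997 each), and Slfn4 to Mir155hg (0.998), Spred1 and Clic4 (0.997 each). Slfn3 had the least close neighbours, Ubxn2a (0.988), Cpd (0.987) and Ago3 (0.986). Between members, r over the 21 pairs was 0.81 to 1.00, and was lowest for Slfn3 with Slfn8. All 12 libraries share the LPS contrast, which sets most of these values.

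Within the 6 stimulated libraries, deviations from the group means ran together for some members and less for others. Slfn3, Slfn4, Slfn5, Slfn8 and Slfn9 had r of 0.96 to 1.00 with each other, whereas Slfn1 had 0.28 with Slfn5, 0.30 with Slfn8 and 0.72 with Slfn2. These values rest on 6 libraries, of which WTL replicate 1 and KOL replicate 2 are the highest for the group of 5 genes.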

How the data were processed

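Poly(A) or rRNA-depleted RNA of 12 BMDC libraries was sequenced (the study's methods name the former, the sample labels the latter). The study's methods state 3 biological replicates per condition, but the mice and cultures behind each library are not named, so p-values measure the spread between these libraries. The authors aligned reads to mm10 with STAR (2.5.1 per the submitters' processing notes, another version in the study's reporting summary) and deposited RSEM expected counts, which need not be whole, and TPM. The authors also deposited gene lengths, as another column. Groups and replicate numbers came from sample titles.

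Expected counts were rounded and tested with edgeR 4.0.16 (TMM, filterByExpr, glmQLFit and glmQLFTest, R 4.3.3) in one fit of 12 libraries, with Benjamini-Hochberg adjustment over 14008 genes. Calls needed an adjusted p under 0.05 and a fold of 2 (LPS), 1.3 (unstimulated KO and WT) or 1.5 (KOL and WTL), with no fold for the interaction. SE is the log2 fold change divided by the square root of F. The script was tested on simulated counts. Alternatives were DESeq2 1.42.0, its size factors, no filter, 10 counts in every library, limma 3.58.1 on log2(TPM) with pseudocounts of 1 and 0.1, with and without a filter, the replicate number as a block, each comparison alone, no fold cutoff, and leaving out libraries. A gene at 3 counts or fewer in every library of a group was taken as at the floor, for counting error only. Positions are GENCODE M21, promoters RefSeq on GRCm38.p6. Coding sequences were aligned with Biopython 1.88.

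Members, interferon genes, markers and motifs were chosen with earlier results of these data known. Named were all Slfn genes, Ctcf, genes along the cluster and 5 protein-coding genes on each side, per comparison the 3 called interferon genes with the largest change plus Ifnb1, Stat2, Irf9 and Irf7, and the 3 genes most like each member. Other interferon genes and the marker genes were named after their values were seen. Some genes that the rule would name are not reported here. Of the markers listed for NK cells, basophils and mast cells, erythroid cells and plasmacytoid dendritic cells, sums were at most 3.02, 1.16, 0.96 and 706 TPM, the last mainly the interferon target Bst2.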

Additional observations from a re-analysis of the deposited data

Results flagged for a closer look

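The LPS response of Slfn1 differed between KO and WT cells, by 1.16 ± 0.14 (SE) on the log2 scale (edgeR interaction term, adjusted p = 8.3e-05), and leaving out any single library gave 1.11 to 1.26.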

How the results depend on the processing

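Of 172 recomputed counts of members called, 166 stayed within 1.5 times the reported count. In KO against WT, higher members numbered 0 with limma on log2(TPM + 1) without the TPM filter, and lower members 5 without the count filter and 1 to 3 when single libraries were left out. For the interaction, lower members numbered 2 without the count filter, 0 to 2 with single libraries left out, and 2 without WTL replicate 1 and KOL replicate 2, a setting chosen after seeing the data. Of 574 fold changes of members, 539 kept direction and side of the threshold, 12 lost the call, 13 gained it and 10 changed sign. The sign changes were the interaction of Slfn2 (0.02 under the 3 limma settings, 0.01, 0.03 and 0.02 without WT replicates 1, 2 and 3, and 0.01 without WTL replicate 1), of Slfn5 (-0.04 without KOL replicate 2) and of Slfn9 (0.02 without WTL replicate 1), and Slfn8 in KOL against WTL (-0.03 without KOL replicate 2), none of them called. With single libraries left out these ran from -0.08 to 0.03 (Slfn2), -0.04 to 0.40 (Slfn5), -0.32 to 0.02 (Slfn9) and -0.03 to 0.38 (Slfn8). Among interferon genes, WTL against WT had 1 lower under the 3 limma settings and without a fold cutoff, where KOL against KO also had 1. KOL against WTL had 0 higher with limma, 0 to 1 with single libraries left out, and 3 higher and 13 lower without a fold cutoff. Under that last rule 23.3% of all tested genes were lower. Their interaction was higher for 12 with limma without the TPM filter, and lower for 4 without the count filter, 1 with limma on log2(TPM + 1) and log2(TPM + 0.1), 1 to 3 with single libraries left out and 4 without WTL replicate 1 and KOL replicate 2. The cause of these shifts was not tested. Libraries with equal replicate numbers did not deviate together (18 pairs, correlation of deviations -0.286 to 0.112, 1 over 0.1). With 3 libraries a group and unequal spread between groups, this cannot show that they were unpaired. The replicate block changed no member count. Under limma on log2(TPM + 1) the median over all genes was -0.438 for WTL against WT, -0.38 for KOL against KO and -0.104 for KO against WT, and no called member changed direction.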
